A study of Ascaris suum with 28 samples.

Results

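Embryos of the pig roundworm Ascaris suum were compared at 32 to 64 cells and at about 256 cells, from 4 of the 28 samples of the series. At each of these stages poly(A) RNA was sequenced from whole embryos, after 116 hours and after 7 days of embryonation. RNA pooled into the free, middle and heavy fractions of a polysome gradient was sequenced from embryos of day 5 and of day 7. The 4 samples filled 8 of the 28 columns of a deposited table of 15399 genes, and each kind of library was read once per stage, so a fold difference between the stages has no replicate behind it. All 4 samples came from a wild North American population. Eggs were taken from the uteri of many females, incubated in acidic saline, stripped of their outer shell and pooled, so every value is a mean over many whole embryos. In such bulk RNA, fewer cells of a type and less RNA per cell cannot be told apart. The series as a whole follows development from oocytes and zygotes of 4 uterus regions through cleavage to L1 and L2 larvae.

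Poly(A) RNA is the pool of messenger RNAs that carry a tail of adenines. A polysome gradient separates RNAs by how many ribosomes they carry: RNAs without ribosomes stay at the top, in the free fraction, RNAs with few ribosomes lie below them, and RNAs with many lie deepest, in the heavy fraction. A nematode embryo cleaves with little growth while its cells take on their fates and move into place, and tissues form in later stages. The table lists genes by identifiers that the files do not pair with names, so the genes below are described by their levels, fractions and history over development and not by function.

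Values are RPKM, read counts scaled to gene length and to the mapped reads of a library, and differences are of log2(RPKM + 1), 256-cell minus 32-64-cell embryos. Totals of the 26 columns used ran from 311996 to 440057 RPKM in 11 poly(A) libraries and from 236086 to 918364 RPKM in 15 fractions, and read counts per library were not used here. The 116 h library had 9255 genes at RPKM 1 or more, the fewest of the 11 poly(A) libraries, against 9985 in the 7-day library. The stage labels went with the profiles. Over 14287 genes, the mean of the day 5 fractions had its highest Pearson correlation of log2 levels with the 116 h library (r = 0.947, against 0.929 with the 96 h library), and the mean of the day 7 fractions with the 7-day library (r = 0.884, against 0.816 with the 116 h library). These correlations are across genes, which are not independent replicates.

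The fraction columns carried a scaling that the poly(A) columns did not. All 15 fraction columns held values on an even grid, as if RPKM of 1 decimal had been multiplied by a constant, while the constant was 1 in all 11 poly(A) columns. The constants were 1.24, 2.36 and 1.47 for the free, middle and heavy fractions of day 5, and 0.871, 2.13 and 1.14 for those of day 7. As a ratio of day 7 to day 5 they were 0.703, 0.901 and 0.775, which lowers the log2 difference of each fraction by 0.51, 0.15 and 0.37. The median difference over the 9117 genes at RPKM 10 or more in any of the 8 columns was -0.08 in poly(A) RNA, 0.20 in free, -0.23 in middle and -0.56 in heavy fractions. With the constants divided out, the medians were -0.08, 0.59, -0.08 and -0.21. The deposited values are used below, with the rescaled counts beside them where they change a reading.

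At a 4-fold limit, more genes were higher than lower at 256 cells in every kind of library; at 2-fold, lower genes outnumbered higher ones in the free (1070 against 892) and heavy fractions (2251 against 1031). A gene was counted as apart where the difference was at least 4-fold and RPKM was 10 or more in at least 1 of the 2 libraries. In poly(A) RNA 309 of 6705 genes were 4-fold higher (4.61%) and 37 were 4-fold lower (0.552%). In the free fraction 497 of 4389 genes were higher (11.3%) and 136 lower (3.1%). In the middle fraction 958 of 8781 were higher (10.9%) and 1.18% lower, and in the heavy fraction 655 of 7484 were higher (8.75%) and 281 lower (3.75%). As deposited, the heavy fraction had the most lower genes, but which fraction had more depended on the scaling. Of the genes apart in the heavy fraction 655, or 70.0%, were higher as deposited, and 706, or 87.2%, with the constants divided out. In the free fraction division by the constants gave 710 higher and 51 lower. In the middle fraction it gave 648 higher and 39 lower among 6968 genes at RPKM 10, in place of 8781. The middle fraction, with the most higher genes as deposited, then had the fewest of the fractions. With every column set to the same total, the counts were 924 and 115 in the heavy and 872 and 29 in the free fraction. Median-ratio scaling gave 802 and 83 in the heavy and 743 and 336 in the free fraction, and quantile normalization 743 and 188 in the heavy and 766 and 540 in the free fraction. In the middle fraction equal totals gave 1028 and 27, median-ratio scaling 648 and 41, and quantile normalization 670 and 115. At 4-fold, higher genes outnumbered lower ones in all 4 kinds under each of these scalings.

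**Figure D1:**
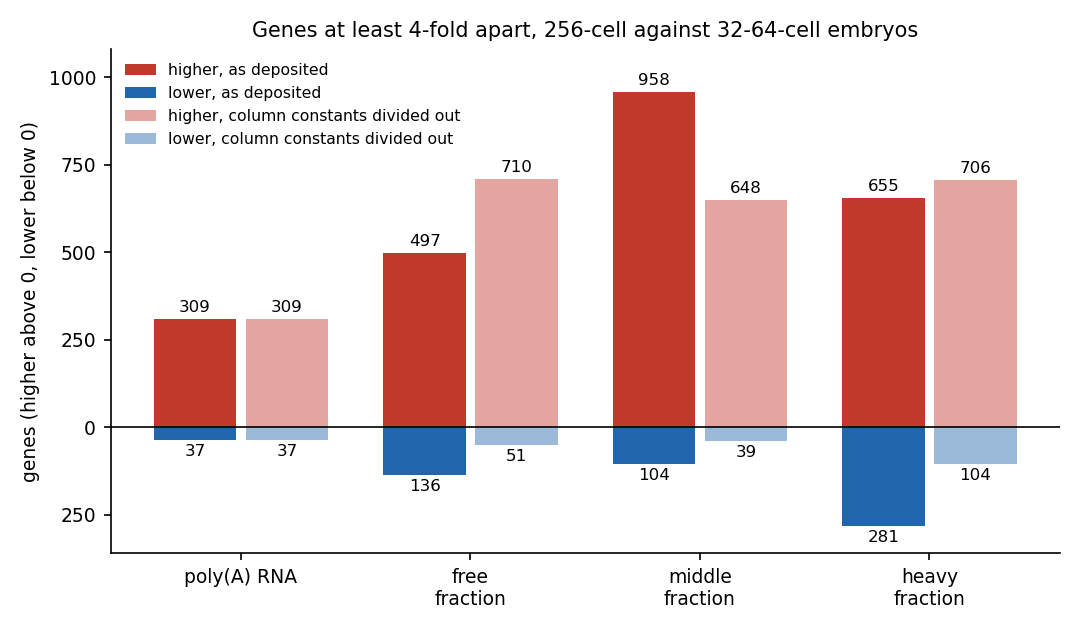
Number of genes at least 4-fold higher (above 0) or lower (below 0) in 256-cell than in 32-64-cell embryos, for poly(A) RNA and the 3 gradient fractions, with 1 library per stage and kind. Dark bars use the deposited RPKM and pale bars the values with each fraction column's constant divided out; the higher genes of the free fraction number 497 and 710, while the poly(A) counts are 309 and 37 in both.

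In all, 1587 genes were 4-fold apart in at least 1 kind of library. Of these, 470 were higher in 1 kind, 263 in 2, 276 in 3 and 148 in all 4, and 341 were lower in 1 kind, 56 in 2, 24 in 3 and 8 in all 4. A single gene, ASU_05181, was 4-fold apart in opposite directions. The direction in poly(A) RNA was mostly that of the fractions: of the 309 genes that were 4-fold higher in poly(A) RNA, the difference was above 0 for 303 in the free, 308 in the middle and 309 in the heavy fraction. Of all 6705 genes at RPKM 10 in the poly(A) pair, 3702, 1929 and 1372 were above 0 in the free, middle and heavy fractions. Of the 309 genes, 275 were 4-fold higher in at least 1 fraction, and 32 of the 37 lower genes were 4-fold lower in at least 1 fraction. Fraction by fraction, 161, 255 and 237 of the 309 were 4-fold higher in the free, middle and heavy fractions. Among all genes at RPKM 10 in each fraction, the shares were 11.3%, 10.9% and 8.75%. Among the 37 lower genes the counts were 16, 25 and 22, against shares of 3.1%, 1.18% and 3.75% lower among all genes. Across the 9117 genes, the poly(A) difference correlated with the free, middle and heavy differences with Pearson's r of 0.63, 0.74 and 0.72 across genes, given as a description.

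**Figure D2:**
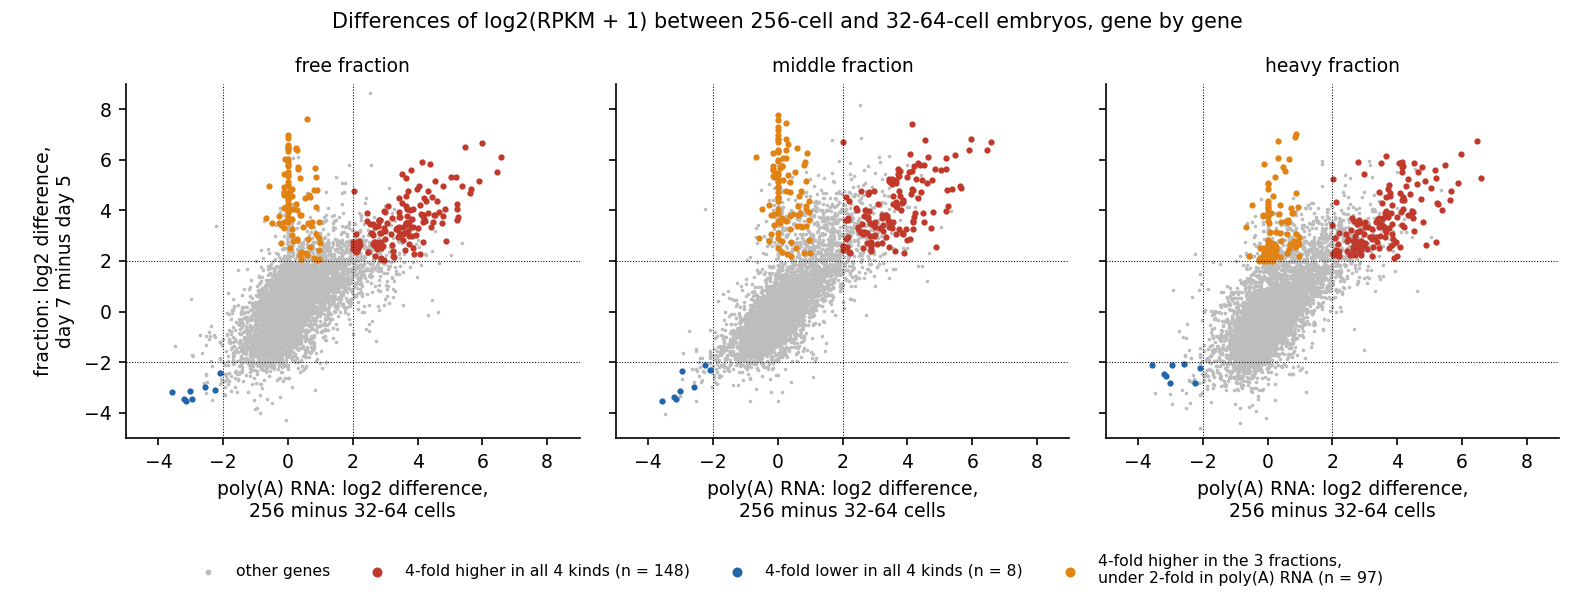
Difference of log2(RPKM + 1), 256-cell minus 32-64-cell embryos, in poly(A) RNA (x axis) against the free, middle and heavy fraction (y axis), 1 point per gene at RPKM 10 or more in any of the 8 columns; dotted lines mark 4-fold. The 148 genes higher in all 4 kinds (red) lie in the upper right, the 8 lower in all 4 (blue) in the lower left, and the 97 genes 4-fold higher in the 3 fractions and under 2-fold apart in poly(A) RNA (orange) stand in a column near 0 on the x axis.

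The 148 genes that were at least 4-fold higher in poly(A) RNA and in all 3 fractions were 4.3% of the 3441 genes that reached RPKM 10 in all 4 kinds. Their median level in poly(A) RNA went from 1.7 RPKM at 116 h to 31.5 at 7 days. In the free fraction it went from 2.6 to 43.5, in the middle fraction from 5.7 to 108.6 and in the heavy fraction from 6.5 to 83.9. Measured from the median of the 9117 genes, their median difference was 3.63 in poly(A) RNA, 3.27 in free, 4.10 in middle and 3.99 in heavy fractions on the log2 scale. The 148 genes made up 0.113% of all poly(A) RPKM at 116 h and 2.09% at 7 days. They also held 4.41% of the heavy fraction of day 7, against 0.234% on day 5. These values chose the genes, so the rises are a description.

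ASU_14222 and ASU_09187 had the largest smallest difference of the 4 kinds. ASU_14222 was at 1.6 RPKM in poly(A) RNA at 116 h and at 162.8 at 7 days. It was at 1.9, 1.7 and 7.1 RPKM in the free, middle and heavy fractions of day 5 and at 293.7, 303.6 and 611.7 in those of day 7. All 4 libraries of 256 cells thus lay far above all 4 of 32 to 64 cells, and the gene was highest in the heavy fraction at both stages. ASU_09187 was at 0.8 RPKM in poly(A) RNA at 116 h and at 157.5 at 7 days, and it stood at 739 in L1 larvae. Its fraction values were 1.5, 2.6 and 4.9 RPKM on day 5 and 113.3, 299.8 and 638.3 on day 7. None of the 8 poly(A) libraries up to 116 h held ASU_09187 above 1.2 RPKM.

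The 8 genes that were at least 4-fold lower in all 4 kinds were 0.232% of the 3441. Their median level in poly(A) RNA was 35.9 RPKM at 116 h and 3.75 at 7 days. In the free fraction the median was 224.2 on day 5 and 21.4 on day 7. Of the 8, 7 had their highest poly(A) level at 96 h, 10 to 26 cells, and the median of the 8 was already lower at 116 h than at 96 h, when it was 161.6 RPKM. ASU_01514 was the most abundant of them, at 2516 RPKM in poly(A) RNA at 116 h and 282.2 at 7 days, after 7156.8 at 96 h. In the fractions it was at 5843.9, 1871 and 1475.5 RPKM on day 5 and at 498.6, 170 and 253.7 on day 7. ASU_14823 was at 211.3 and 25.1 RPKM in poly(A) RNA. It was at 494.3, 499.6 and 330.4 RPKM in the day 5 fractions and at 55.6, 55.2 and 46.2 in those of day 7. Both genes were lower at 256 cells in every kind of library, as the rule that chose the 8 requires. The count of 8 was 3 with the constants divided out or every column set to the same total, and 2 under median-ratio scaling.

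Genes that were apart in 1 kind of library and under 2-fold apart in the other 3 were few. In poly(A) RNA there were 2 (0.0298% of the genes at RPKM 10 in that kind). ASU_14534 was at 29.3 RPKM at 116 h and 141.2 at 7 days, and its fractions were at 108.8, 127.2 and 209.2 on day 5 and at 179.3, 181.7 and 236.6 on day 7. ASU_02332 was at 24.2 RPKM at 116 h and 2.8 at 7 days, against 11.9, 28.8 and 26.4 in the day 5 fractions and 5.7, 16.6 and 15.1 in those of day 7. The fractions of ASU_14534 were already high at 32 to 64 cells, whereas those of ASU_02332 were lower at 256 cells by 0.95, 0.76 and 0.77 on the log2(RPKM + 1) scale. Counting genes under 4-fold in the other kinds instead gave 31 genes in place of 2. A further count, of the 309 higher genes that were 4-fold higher in no fraction, was 34, with a median of 3.15 RPKM at 116 h and 26.9 at 7 days.

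In the free fraction 29 genes were apart by that definition (0.661%), 20 higher and 9 lower, and in the middle fraction 11 (0.125%), 8 higher and 3 lower. The 20 free-fraction genes had been close to absent from the top of the gradient. Their median was 1.75 RPKM in the free fraction of day 5 and 14.5 on day 7, while it was 90.6 and 114.5 in the middle and 94.9 and 96.7 in the heavy fraction. These values chose the genes too. ASU_10159 was at 1.2 RPKM in the free fraction on day 5 and 36.7 on day 7, and at 172.2 and 145 in poly(A) RNA. ASU_11227 was at 2.1 and 36.1 in the free fraction and at 191.3 and 115.3 in poly(A) RNA. With the constants divided out, 53 genes were higher in the free fraction by this definition and 3 lower.

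In the heavy fraction 57 genes were apart by that definition (0.762%), 10 higher and 47 lower. The 47 lower genes had a median of 27.3 RPKM in the heavy fraction of day 5 and 3.9 on day 7. Their median in the middle fraction was 25.3 and 15.3, in the free fraction 2.4 and 2.5, and in poly(A) RNA 21.4 and 14.1. As for the free class, these values chose the genes and are a description. ASU_10257 was at 20 RPKM in the heavy fraction of day 5 and listed at 0 on day 7, and at 18 and 17 in the middle fraction. ASU_11733 was at 14.4 and listed at 0 in the heavy fraction, and at 14.9 and 12.4 in the middle fraction. With the constants divided out, 12 genes were lower in the heavy fraction by this definition and 14 higher, in place of 47 and 10.

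A larger class was 4-fold apart in the gradient and under 2-fold apart in poly(A) RNA. By the same limits, 97 of the 3993 genes at RPKM 10 in all 3 fractions were 4-fold higher in the 3 fractions and under 2-fold apart in poly(A) RNA (2.43%), and 3 were 4-fold lower (0.0751%). The counts were 97 and 1 with the constants divided out, but the genes were not all the same. Of the 100 genes of both directions as deposited, 82 stayed in the class with the constants divided out. Under median-ratio scaling 78 of them stayed, and under quantile normalization 71. In 49 of the 97 genes the poly(A) difference was above 0. The median poly(A) level of the 97 was 0.1 RPKM at 116 h and 0.2 at 7 days. Their median in the fractions was 0.4, 0.5 and 4 RPKM on day 5 and 30, 43 and 46.7 on day 7. The 97 genes made up 0.0285% of all poly(A) RPKM at 7 days, against 0.908%, 1.01% and 1.58% of the free, middle and heavy fractions of day 7.

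The 97 genes fell into a pair of histories, separated here after their values were seen and not tested. In 35 of them L1 larvae had RPKM 10 or more, against 3502 of the 3993 genes, a larger share. In 32 of these 35 the poly(A) difference was above 0, against 1517 of the 3993. The median poly(A) difference of the 35 was 0.63 on the log2(RPKM + 1) scale, at low levels. The median level of these 35 was 65.2 RPKM in L1 larvae and 1.2 in poly(A) RNA at 7 days. It was 0.7, 1.2 and 1 RPKM in the day 5 fractions and 22.3, 37.5 and 36.6 in those of day 7. The rule that chose the 97 sets the rise in their fractions and the small poly(A) difference, and it favours a low poly(A) level. It asks for no minimum RPKM in poly(A) RNA. On the log2(RPKM + 1) scale, a gene under 1 RPKM in both poly(A) libraries always counts as under 2-fold apart. ASU_14964 was at 0.2 RPKM in poly(A) RNA at 116 h, 0.5 at 7 days and 847 in L1 larvae, at 0.1, 0 and 0 in the day 5 fractions and at 56.2, 98.9 and 104.9 in those of day 7. ASU_10922 was at 0.5 RPKM at 116 h, 1.7 at 7 days and 483 in L1 larvae, listed at 0 in all 3 fractions of day 5 and at 49.5, 59.9 and 117.6 in those of day 7.

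L1-high genes outside the 97 were at low levels in the day 7 gradient, and leaving out the 97 favours this. Of all genes, 42 had RPKM 100 or more in L1 larvae and under 1 in poly(A) RNA at both 116 h and 7 days, and 7 of them belong to the 97. Among the 42 genes, those at least 2-fold higher on day 7 numbered 22, 24 and 31 in the free, middle and heavy fractions. At least 2-fold lower were 0, 1 and 0. Of all 15399 genes, 2736, 2980 and 2448 were at least 2-fold higher there. The median of the 35 outside the 97 was 189 RPKM in L1 larvae, 0.2, 0.2 and 0 in the day 5 fractions and 1.7, 1.7 and 2.6 in those of day 7. Across 14287 genes the mean of the day 7 fractions had r = 0.804 with the L1 library, and the 7-day poly(A) library had r = 0.786 with it. The part that older embryos or larvae in the day 7 gradient could have in these values was not tested.

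The other history belonged to 61 of the 97 genes, which had RPKM 10 or more in the middle fraction of day 0, before the first cleavage. Of the 3993 genes a larger share, 3315, reached that level there. The median of these 61 in the middle fraction was 35, 0.9, 11.3, 0.5 and 61.8 RPKM in the gradients of days 0, 1, 3, 5 and 7. In the heavy fraction of the same gradients it was 1.9, 1, 0.6, 7.4 and 58.1 RPKM. Their poly(A) medians were 0.3 RPKM in zygotes of uterus region 4, 0.1 at 116 h and 0 at 7 days. Their median was thus near 0 in these poly(A) libraries, while in gradients it went up and down and was near 0 on some days too. In 16 of the 61 a poly(A) library up to 96 h had reached RPKM 10. Of the 97 genes, 7 belonged to both histories and 8 to neither.

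**Figure D3:**
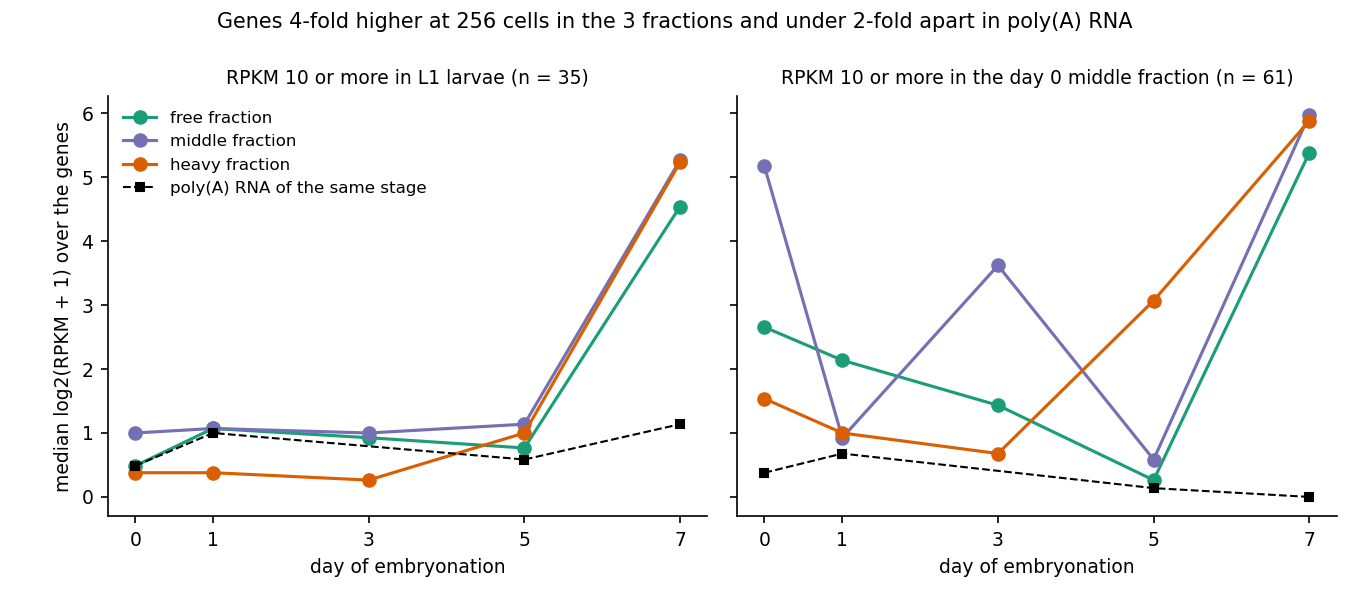
Median log2(RPKM + 1) by day of embryonation in the free, middle and heavy fractions (1 library per point) and in poly(A) RNA of the same stage (dashed), for 35 genes with RPKM 10 or more in L1 larvae and 61 genes with RPKM 10 or more in the middle fraction of day 0, 7 genes being in both. In both panels the fractions stand highest on day 7 and poly(A) RNA stays near 0; the right panel also shows high middle fractions on days 0 and 3.

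ASU_05180 had the largest difference of any gene in the free and in the middle fraction and a history like that of the 61; it is outside the 97 because its poly(A) difference was 2.54. Its middle fraction was at 409.2, 1.5, 190.6, 2.1 and 891.8 RPKM in the gradients of days 0, 1, 3, 5 and 7. In the free fraction it was at 0.7 on day 5 and 672.4 on day 7, and in the heavy fraction at 179.3 and 1076.1. Its poly(A) level was 0.1 RPKM at 116 h and 5.4 at 7 days. ASU_01516, which was 4-fold lower in the 3 fractions, was another RNA seen mostly in gradients. It was at 2178.6, 834.2 and 639.7 RPKM in the day 5 fractions and at 199, 99.7 and 123.2 in those of day 7, while poly(A) RNA was at 0.9 and 0.2. ASU_14718, the other lower gene named here, was at 161.3, 55.3 and 55.2 RPKM in the day 5 fractions, at 21.2, 3.8 and 7.9 in those of day 7, and at 21.5 and 11.5 in poly(A) RNA.

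ASU_05181, singled out after its values were seen, was the gene apart in opposite directions. In poly(A) RNA it was at 11.7 RPKM at 116 h and 1.7 at 7 days. In the fractions it was at 39.7, 34.8 and 149.7 RPKM on day 5 and at 425.6, 593.8 and 738.1 on day 7. It was lower in poly(A) RNA and higher in each fraction at 256 cells, and its middle fraction was also high on day 0, at 311.1 RPKM, and on day 3, at 171.5.

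**Figure D4:**
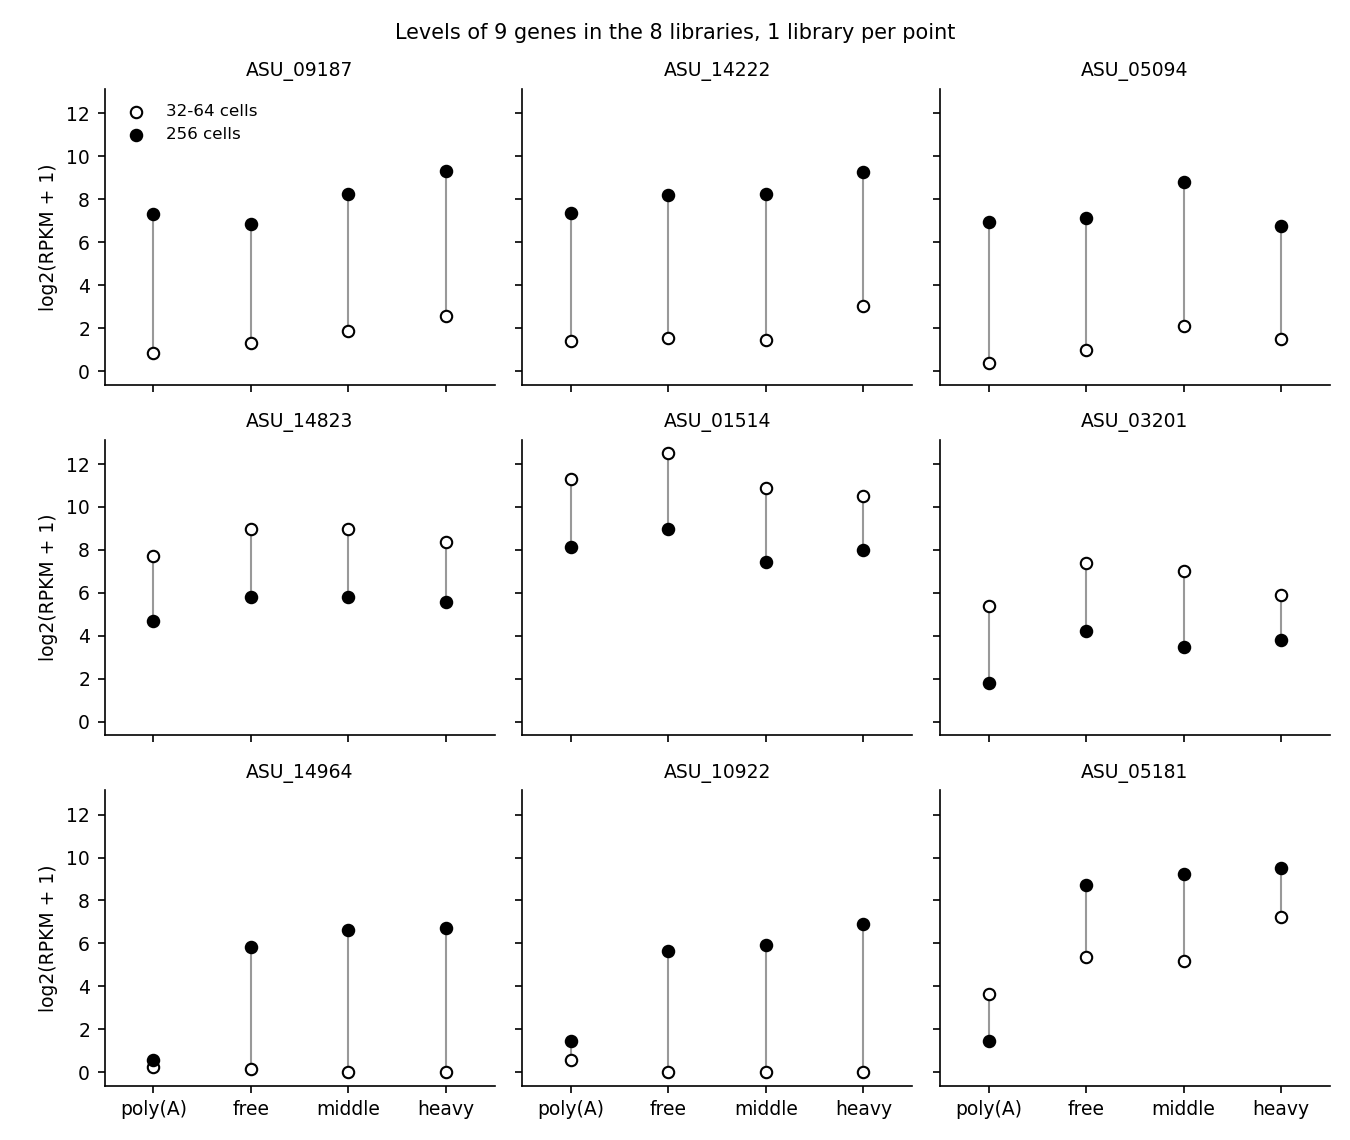
Levels of 9 named genes in the 8 libraries, as log2(RPKM + 1), with open circles for 32-64-cell and filled circles for 256-cell embryos, 1 library per point. The top row is higher at 256 cells in all 4 kinds, the middle row lower in all 4, and the bottom row holds ASU_14964 and ASU_10922, apart in the fractions, and ASU_05181, which was lower in poly(A) RNA (11.7 to 1.7 RPKM) and higher in each fraction.

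The genes that were higher in poly(A) RNA at 7 days were often at their highest in larvae. Fewer of them than of the 6705 compared genes had been present earlier. Of the 309, 135 (43.7%) had their highest poly(A) level in L1 larvae, 80 (25.9%) at 7 days and 47 (15.2%) in L2 larvae, against 8.43%, 13.4% and 6.28% of the 6705 genes at RPKM 10 in either library of the pair, while 24 had it in zygotes of region 4 and 16 in those of region 3. The rule that chose the 309 genes sets 7 days above 116 h, so they could not peak at 116 h and were favoured at 7 days. At 116 h, 21 of the 309 were at RPKM 10 or more, against 6108 of the 6705. The 116 h library had r = 0.959 with the 96 h library across genes. The rule thus also favours low levels before 116 h in the 309 genes. Their median level was 4.4 RPKM in zygotes of region 4, 4.9 at 24 h, 1.4 at 96 h, 1.6 at 116 h, 24 at 7 days, 37.8 in L1 and 9.3 in L2 larvae. In 149 of them (48.2%) at least 1 of the 7 poly(A) libraries from before 116 h had reached RPKM 10, against 94.2% of the 6705. In 24 all 7 were under 1 RPKM, against 40 of the 6705. Close to equal numbers of these genes thus had and had not been at RPKM 10 before 116 h, in the poly(A) libraries used. L1 larvae had a higher level than 7-day embryos in 205 of the 309 genes (66.3%), against 27.6% of the 6705. Together the 309 genes held 0.303% of poly(A) RPKM at 116 h, 3.69% at 7 days and 6.15% in L1 larvae.

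ASU_05094 is an example of return, being at 13.6 RPKM in zygotes of region 4, 0.3 at 116 h and 123.1 at 7 days, and then at 14.9 in L1 larvae. Its fractions were at 1, 3.3 and 1.8 RPKM on day 5 and at 138.3, 453.4 and 107.4 on day 7. It stood apart from ASU_09187, which was low in all 8 earlier libraries and highest in L1 larvae.

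The 37 genes that were 4-fold lower in poly(A) RNA had a peak in cleavage. Of these, 27 (73.0%) had their highest poly(A) level at 96 h and 6 (16.2%) at 116 h, against 13.5% and 12.2% of the 6705. The rule that chose the 37 genes excludes a peak at 7 days and favours 116 h. Their median level went from 7 RPKM in region 1 zygotes to 18.1 in those of region 4 and 57.7 at 96 h, and then to 30.7 at 116 h and 4.4 at 7 days. ASU_03201 was at 149.2 RPKM at 96 h, 40.6 at 116 h and 2.5 at 7 days. ASU_00237 was at 21.4, 42.6 and 2.9 RPKM at these times, and at 21 in L1 larvae. The 37 genes held 3.22% of poly(A) RPKM at 96 h, 1.08% at 116 h and 0.145% at 7 days.

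**Figure D5:**
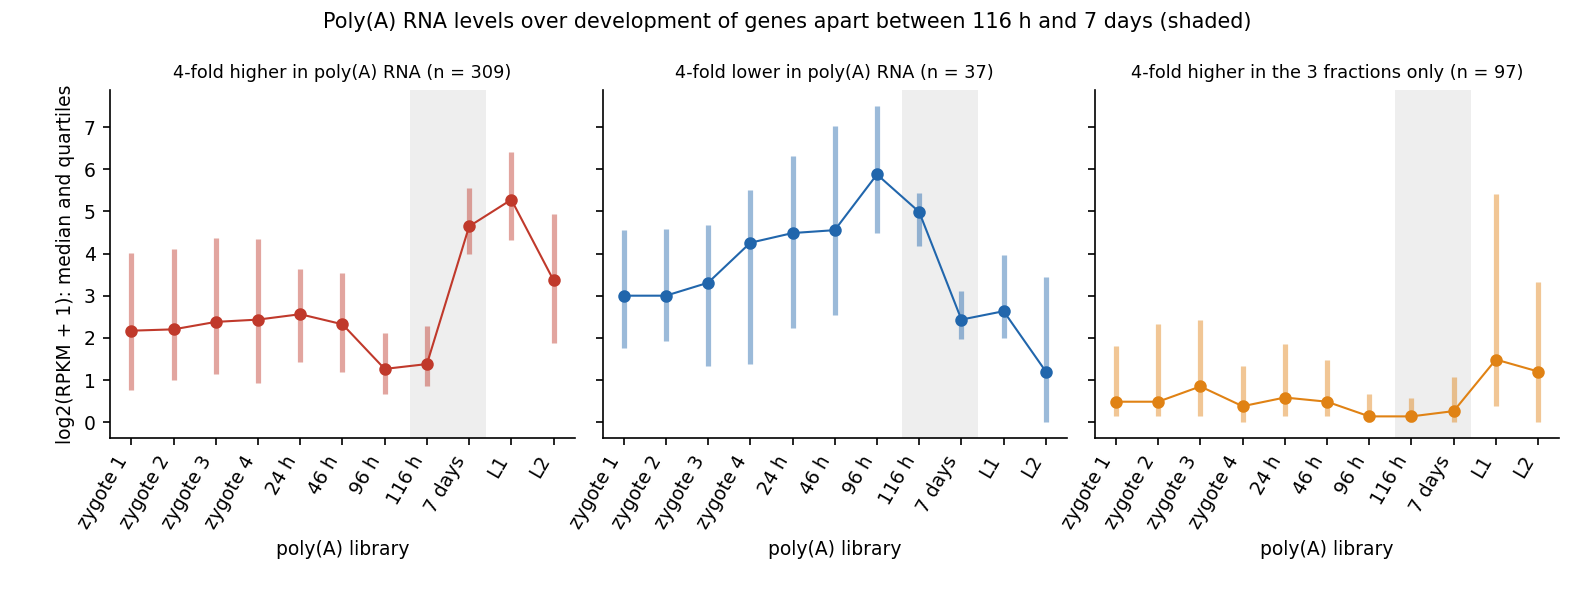
Median (points) and quartiles (bars) over genes of log2(RPKM + 1) in each of the 11 poly(A) libraries, for the 309 genes 4-fold higher and the 37 genes 4-fold lower at 7 days than at 116 h (the shaded libraries) and for the 97 genes higher in the 3 fractions only; the shaded difference of the first and second panel is what chose the genes. The higher genes were at 1.4 RPKM at 96 h and 37.8 in L1 larvae, and the lower genes peaked at 57.7 RPKM at 96 h.

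A fit across all genes compared the stages with the poly(A) library and the mean of the 3 fractions as the 2 libraries of a stage, as the series' design text treats them. Zygotes of region 4 and 1-cell embryos of 24 h, which have both preparations too, entered the same limma fit of 8 libraries, so that p measures the spread between preparations and not between cultures. At an adjusted p under 0.05, 849 of 12961 genes rose from 32-64 to 256 cells (6.55%) and 156 fell (1.2%). All 148 genes that were higher in the 4 kinds and all 8 that were lower are among them, as are 301 of the 309 and 35 of the 37 poly(A) genes; the fit reads the same libraries, so these counts are no independent support. Of the 97 genes of the fractions class 88 could be fitted and 9 rose, and in this limma fit 0 of the 47 lower genes of the heavy class and 0 of the 20 higher genes of the free class passed (11 and 0 of them had an unadjusted p under 0.05). The largest rise among genes at least 2-fold higher in every kind was that of ASU_09187, with a log2 change of 6.46 ± 0.55 (SE, 8 libraries, limma adjusted p = 7.2e-06), and ASU_05094 came next at 6.42 ± 0.60 (limma adjusted p = 1.1e-05). The largest falls were those of ASU_00237, at -3.42 ± 0.48 (limma adjusted p = 0.00021), and ASU_03201, at -3.30 ± 0.48 (limma adjusted p = 0.0003). Of the genes that rose, 656 were at least 2-fold higher in all 4 kinds and 437 (51.5%) had their highest poly(A) level in L1 larvae. Of those that fell, 87 were at least 2-fold lower in all 4 kinds. The fit called these genes on the same libraries, which favours the same direction in all kinds. For the genes that rose it also disfavours a peak at 116 h. The 656, 437 and 87 are thus a description, and the shares among all 12961 genes were not counted.

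The number of calls turned on single libraries. It was 167 without the 116 h library, 280 without the day 5 gradient and 506 without the day 7 gradient, against 1005 with all 8 libraries. Scaling moved the balance of directions: 1039 rose and 360 fell with the constants divided out, quantile normalization gave 929 and 437, and median-ratio scaling 1304 and 576.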

How the data were processed

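The values are RPKM, deposited by the authors as 1 table of 15399 genes with 1 decimal. The submitters' processing notes name Bowtie 0.12.7. Which build, gene models and counter made the values is not given in the sources used here. Per the labels' protocols, RNA was poly(A)-selected, fragmented, primed at random, amplified and sequenced on Illumina machines. Of the columns, 26 were used; 2 whose names match several samples were not. Groups came from the labels. The members, classes and cut-offs were chosen with earlier results of these data known.

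Differences were taken on the log2(RPKM + 1) scale, which understates the change of low genes, and have no test, since each side is 1 library. A gene was 4-fold apart at a log2 difference of 2 with RPKM 10 or more in either library, and "not apart" meant under 2-fold. Column constants were estimated from the grid of values up to RPKM 40, after the data were seen. limma 3.58.1 (R 4.3.3) was fitted with stage and preparation terms, an intensity trend and Benjamini-Hochberg adjustment to genes with RPKM 1 or more in at least 2 of 8 libraries. Tested on simulated data for this comparison over 12961 genes, the fit recovered 1.49%, 74.6% and 100% of genes changed by log2 1, 2 and 3, with 3 false calls among 120. The simulated data followed the model of the fit, with additive stage and preparation terms and independent normal noise. They hold no difference between preparations that varies by stage, so they do not give the rate of false calls in the real data. Named genes are at most 2 per direction and comparison, the largest by the rank of that comparison. Tables were handled in Python 3.11.15 (pandas 2.3.3, numpy 2.4.6) and drawn in matplotlib 3.10.9.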

Additional observations from a re-analysis of the deposited data

Results flagged for a closer look

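ASU_05181 differed between kinds of library: its log2 difference, 256-cell minus 32-64-cell embryos, was -2.23 in poly(A) RNA and 3.39, 4.05 and 2.29 in the free, middle and heavy fractions. The poly(A) library moved one way and each of the 3 fractions the other, and with 1 library per stage and kind this difference was not tested. Its fitted change over both preparations was 0.36 ± 1.04 (SE, 8 libraries, limma adjusted p = 0.91).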

How the results depend on the processing

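All counts of fold differences rest on 1 library per side, on RPKM of unknown read depth and on a fraction scaling that the sources used here do not state. No paired analysis was possible because each group has 1 library and the labels give no replicate numbers; the preparation term of the fit pairs kinds of library within a stage, not replicates. Each list below gives genes 4-fold higher in all 4 kinds, lower in all 4, apart in poly(A) RNA alone, apart in the fractions but not poly(A) RNA, and apart in any kind, which were 148, 8, 2, 100 and 1587. They were 79, 3, 3, 62 and 851 with a pseudocount of 5, 271, 9, 9, 169 and 2472 with a floor of RPKM 1, and 33, 3, 1, 28 and 591 with a floor of RPKM 50. A 2-fold cut-off gave 251, 84, 57, 318 and 5104, and at that cut-off lower genes outnumbered higher ones in the free (1070 against 892) and heavy fractions (2251 against 1031). With every column at the same total the higher genes were 239 and the lower 3. The lower genes were 2 with median-ratio scaling, 3 with the constants divided out, 17 without the free fraction and 14 without the heavy fraction. The genes apart in poly(A) RNA alone were 1 with a pseudocount of 0.5, with median-ratio scaling or with the constants divided out, and 31 if the other kinds need only be under 4-fold. The genes apart in the fractions were 161 if poly(A) RNA need only be under 4-fold. The causes were not tested.

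The 1005 calls of the fit became 641 with a pseudocount of 5, 1880 with median-ratio scaling, 578 with the free fraction and 538 with the heavy fraction as the gradient value, 382 without the preparation term and 3168 with the 4 libraries of these stages alone, which leave 1 residual degree of freedom. Leaving out each library in turn gave 167 to 1432 calls. Of the 1399 calls with the constants divided out, 918 were shared with the 1005. Of 154 fitted values of named genes under the alternatives, 152 kept direction and call, and 2, of ASU_01514 and ASU_03201 without the preparation term, kept direction and lost the call. Of 204 fold values of named genes, 0 reversed and 16 were under 4-fold.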

Other observations

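Few genes went from near 0 to a clear level in every library. In 1286 genes all 4 libraries of 32 to 64 cells were listed at 0, and 0 of them had RPKM 10 or more in all 4 libraries of 256 cells. Under 1 RPKM in all 4 libraries of 32 to 64 cells and 10 or more in all 4 of 256 cells were 4 genes, and 0 genes went the other way. Counting the fractions alone, 32 genes, the 4 above included, went from under 1 RPKM in all 4 libraries to 10 or more in the 3 fractions of day 7, and 10 of the 32 were still under 1 RPKM in poly(A) RNA at 7 days. In L1 larvae 469 genes had RPKM 10 or more after being under 1 in poly(A) RNA at 116 h and 7 days, and their median in the day 7 fractions was 1.1, 3 and 1.6 RPKM in free, middle and heavy, against 0.2, 0.2 and 0 on day 5.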
